A study of Mus musculus with 2 samples.

Results

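The Hoxc cluster is one of 4 groups of neighbouring Hox genes in the mouse, and it holds 9 of the 21938 protein-coding genes of the annotation: Hoxc4, Hoxc5, Hoxc6, Hoxc8, Hoxc9, Hoxc10, Hoxc11, Hoxc12 and Hoxc13. The members were chosen by name and not by a measured value, though earlier results of these data were known. They lie on mm10 chromosome 15 between positions 102921103 and 103036852, all on the plus strand, with Hoxc13 first and Hoxc4 last. Every peak and hotspot of both libraries was mapped over these genes and 50 kb on each side, a window of 215.75 kb.

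The samples were hindbrain (cerebellum, pons and medulla) of unmanipulated B6NCrl mice aged 0 days, with males and females pooled. They form 1 group of 2 biological replicates, recorded under the same donor entry, and no other condition was compared. DNase-seq marks DNA that DNase I can reach, and the deposited tables list narrow peaks with a score and broader hotspots with a −log10 q-value, each called per library. No source used here states how the score is scaled, so it was used to rank and describe peaks within a list, and read depth is unknown. Nothing says how many animals a library holds, and tissue of many cell types was pooled, so a weak peak and a peak of few cells cannot be told apart.

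Hox proteins are homeodomain transcription factors that give cells their position along the head-to-tail axis. The order of genes in a cluster follows the order of their expression domains: genes at the low-numbered end are used nearest the head and earlier, those at the high-numbered end nearest the tail. The Hoxc cluster has no gene of groups 1 to 3, which pattern most of the hindbrain, and the expression of its low-numbered genes is known from the caudal hindbrain backwards. In tissue where Hox genes are silent, Polycomb complexes are known to hold their CpG-rich promoters.

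Open regions with a peak of each replicate were concentrated from the Hoxc10 promoter to Hoxc4 and in a group beyond Hoxc4, and were sparse at the Hoxc13 end. The sequences of 5 of them are given first, on the plus strand of mm10, since most shared regions of the cluster lay away from promoters. They are the highest by mean percentile of score among the 9 of 16 shared regions that touch no exon and lie over 500 bp from every start site of a member. The first lies between Hoxc9 and Hoxc8 (chr15:102987536-102987705), the second at the far edge of the window beyond Hoxc4 (chr15:103085916-103086085), the third in an intron of Hoxc6 (chr15:102999256-102999405), the fourth in the group of regions beyond Hoxc4 (chr15:103061576-103061745) and the last in an intron of the longer Hoxc4 transcript (chr15:103032776-103032965). Capitals mark matches to the motifs listed further on: the GC box in the second one and in that of Hoxc6, the Hox-Pbx word followed by the retinoic acid direct repeat in the fourth, and the Hox-Pbx word followed by the Cdx word, on the minus strand, in the last.
Hoxc9 to Hoxc8 gap: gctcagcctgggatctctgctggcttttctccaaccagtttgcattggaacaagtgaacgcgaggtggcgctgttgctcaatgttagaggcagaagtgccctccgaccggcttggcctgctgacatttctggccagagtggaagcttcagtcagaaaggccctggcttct
Edge of the flank beyond Hoxc4: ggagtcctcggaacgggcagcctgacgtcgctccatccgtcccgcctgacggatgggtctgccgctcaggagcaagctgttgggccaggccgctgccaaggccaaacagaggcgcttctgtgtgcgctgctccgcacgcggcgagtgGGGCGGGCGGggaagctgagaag
Hoxc6 intron: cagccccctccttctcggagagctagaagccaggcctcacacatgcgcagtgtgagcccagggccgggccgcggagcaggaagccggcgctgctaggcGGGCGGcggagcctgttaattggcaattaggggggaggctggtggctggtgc
Group beyond Hoxc4: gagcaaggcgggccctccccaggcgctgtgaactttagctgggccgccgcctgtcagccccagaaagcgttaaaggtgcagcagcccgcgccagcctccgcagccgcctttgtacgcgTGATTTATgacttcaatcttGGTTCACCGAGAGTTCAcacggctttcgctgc
Hoxc4 intron: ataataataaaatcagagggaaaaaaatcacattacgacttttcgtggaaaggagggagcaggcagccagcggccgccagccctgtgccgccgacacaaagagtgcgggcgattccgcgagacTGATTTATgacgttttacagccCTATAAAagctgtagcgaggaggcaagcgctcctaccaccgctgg

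Replicate 1 had 31 of its 270757 peaks on the main chromosomes in the Hoxc window, and replicate 2 had 20 of its 171790. Merging them gave 32 regions, of which 16 were shared by the replicates, 15 came from replicate 1 only and 1 from replicate 2 only. Of the peaks of replicate 2 in the window, 16 of 20 overlapped a peak of replicate 1 (80%, exact binomial 95% interval 56.3 to 94.3, counting error only), against 82.5% over all main chromosomes. Of those of replicate 1, 16 of 31 overlapped one of replicate 2 (51.6%, 33.1 to 69.8), against 51.6% over all main chromosomes. The window therefore had about the replicate agreement of the genome as a whole, and the 4 unmatched peaks of replicate 2 scored 32 to 42. All but 1 of these 4 lay inside a shared region, beside a matched peak. Unmatched peaks of replicate 1 scored 28 to 56 with a median of 47, and its matched peaks 36 to 117 with a median of 61.

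**Figure D1:**
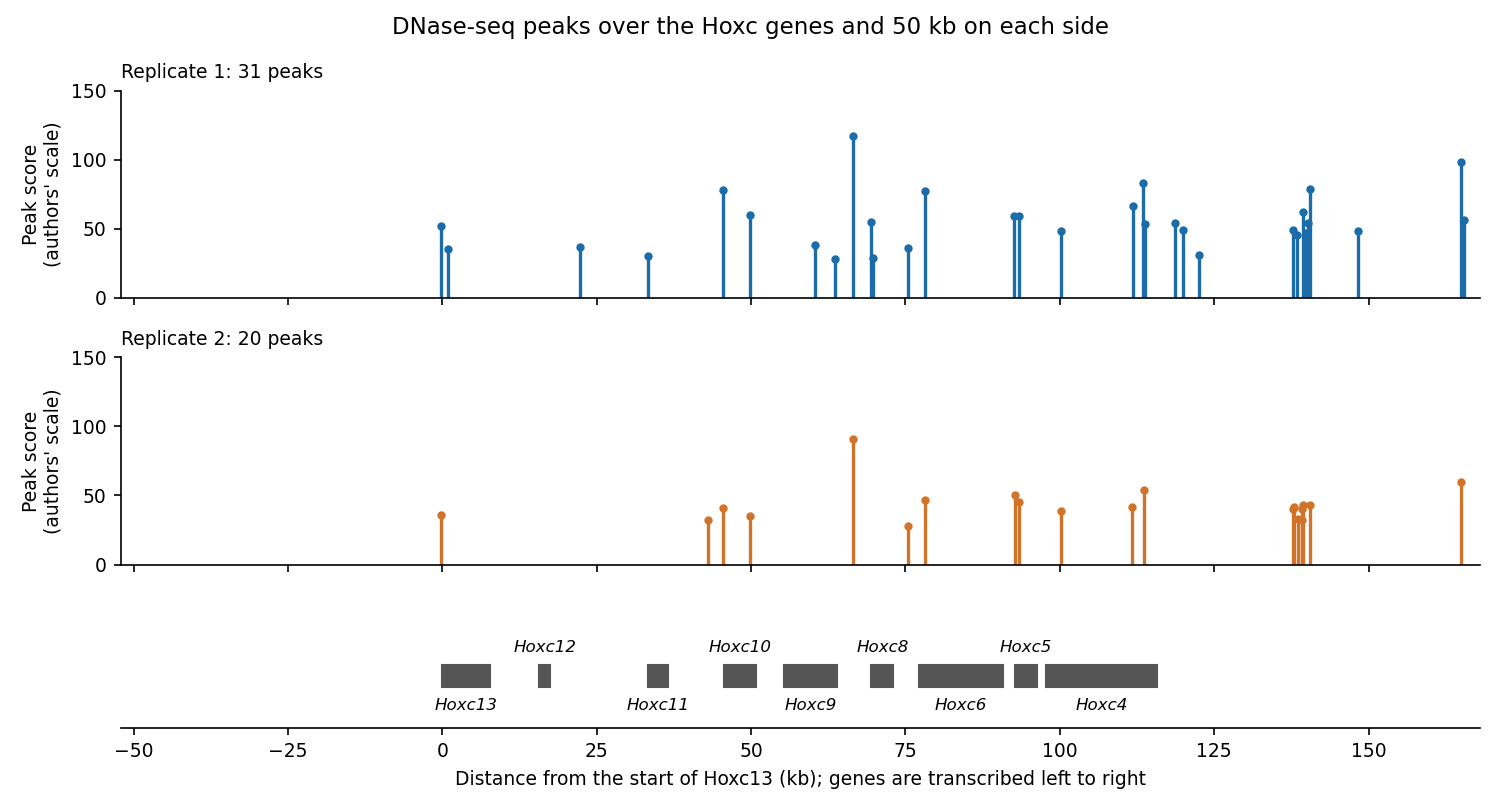
Peaks of replicate 1 (top) and replicate 2 (middle) over the Hoxc genes; each line is a peak, its height the authors' score, and the horizontal axis gives kb from the start of Hoxc13. Boxes mark the genes, with the long Hoxc5 transcript left out. The tallest line in both is the region between Hoxc9 and Hoxc8 (scores 117 and 91), and no peak of either replicate lies more than 0.307 kb before Hoxc13 in this window.

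Promoters of the Hoxc genes had peaks of both replicates at 4 of 9 members (44.4%), against 66.3% of all protein-coding genes. A promoter here is 500 bp on each side of a start site, counting all annotated transcripts of a gene. The 4 were Hoxc4, Hoxc5, Hoxc10 and Hoxc13. With the 5′ end of each gene as its single start site the count was 2, Hoxc10 and Hoxc13, since the peaks of Hoxc4 and Hoxc5 lie at the starts of their shorter transcripts. Hoxc8 and Hoxc11 had a promoter peak in replicate 1 only, a class that holds 4.49% of all protein-coding genes, and Hoxc6, Hoxc9 and Hoxc12 had none in either replicate, as did 28.7% of all genes. In replicate 1 alone the count was 6 of 9, against 70.8% of all genes. The other Hox clusters were also below the share of all genes for peaks of both replicates. They had 6 of 11 in Hoxa (54.5%), 5 of 10 in Hoxb (50%) and 2 of 9 in Hoxd (22.2%). A promoter peak in replicate 1 only was found at 1 Hoxa, 4 Hoxb and 4 Hoxd genes. With only 2 replicates of 1 group no test over samples is possible, and none over genes was made. Absence from a peak list says that no signal there passed the calling step, and not that the chromatin was closed.

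At the low-numbered end, Hoxc4 had the highest promoter score of the members, at the start of its shorter transcript. With RefSeq gene starts, an alternative chosen after seeing the data, it had no promoter peak. Hoxc4 and its neighbour Hoxc5 belong to the groups expressed nearest the head in this cluster, in the caudal hindbrain and neck-level spinal cord. The Hoxc4 promoter scored 83 in replicate 1 and 54 in replicate 2, the 83.8th and 70.4th percentile of their lists. Its peaks lay 161 and 181 bp downstream of the start of the shorter transcript and crossed its 5′ untranslated part and first coding bases. The start of the longer transcript had no peak closer than 2222 bp in replicate 1 and 2202 bp in replicate 2. Replicate 1 had a further peak in the coding exon (score 53), inside the same hotspot. Between the Hoxc4 start sites lay 2 more shared regions, at 100.1 kb (48 and 39) and 111.8 kb (66 and 42) from the start of Hoxc13. Hoxc4 was the member with the most shared regions, 3 in its 17.9 kb.

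Hoxc5 scored 59 in replicate 1 and 50 in replicate 2 at the start of its shorter transcript, and the peaks of both replicates covered the start site itself. A second shared region (59 and 45) lay 606 bp into the gene, over the first coding exon. In replicate 1 these 2 regions had hotspots of −log10 q 100, the cap of the table, and 3.88, and in replicate 2 of 6 and 1.80. The longer Hoxc5 transcript starts 647 bp inside Hoxc10 and spans 3 other members, and neither replicate had a peak closer than 758 bp to that start. The microRNA gene Mir615 lies in Hoxc5, and the second region fell in its promoter window.

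Hoxc6 and Hoxc8 encode factors of the forelimb-level spinal cord, where they act in motor neuron identity. Hoxc6 had no peak within 500 bp of its 3 start sites, and its closest peak in each replicate lay 999 bp downstream of the first. That region, printed above, scored 77 and 47, the 80.6th and 62.8th percentile. Windows of 1000 bp take it as a Hoxc6 promoter peak through the first start site, and it lay 1124 bp before the next. Hoxc8 had a peak over its start site in replicate 1 (score 55, hotspot −log10 q 5.52) and a weaker one in its first coding exon (29). In replicate 2 the closest peak to a Hoxc8 start was the region in the gap to Hoxc9, 2902 bp away. Between Hoxc8 and Hoxc6 a single shared region had the lowest scores of the 16, 36 and 28.

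The strongest region of the window lay between Hoxc9 and Hoxc8, 66.5 kb from the start of Hoxc13. Hoxc9 sets the thoracic identity of motor neurons in mouse and chick by repressing forelimb-level Hox genes. The region scored 117 in replicate 1 and 91 in replicate 2, the 95.3rd and 91.7th percentile. Its hotspots were 385 and 551 bp wide. It was the only region whose hotspot reached the −log10 q cap of 100 in replicate 2, while in replicate 1 the cap was reached by 8 of 29 hotspots of the window. Its centre was 2986 bp from the closest start site of a protein-coding gene, that of Hoxc8. It overlapped no exon and lay in an intron of the longer Hoxc5 transcript. Hoxc9 itself had no promoter peak: the closest lay 4424 bp from a start site in replicate 1 and 5454 bp in replicate 2. The 2 peaks inside the Hoxc9 gene (38 and 28), both over untranslated sequence, were found in replicate 1 only.

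Among the high-numbered members Hoxc10 stood out. Hoxc10 acts in lumbar motor neurons and the hindlimb. Its promoter peak lay 111 bp before the start site in both replicates, at the same position (chr15:102966536-102966685). It scored 78 in replicate 1 and 41 in replicate 2, the 81.1st and 54.5th percentile, with hotspots of −log10 q 100 and 4.70. A second shared region (60 and 35) lay over a coding exon of Hoxc10, at 49.8 kb from the start of Hoxc13. The only region found in replicate 2 alone, with a score of 32, lay in the gap before Hoxc10, 2645 bp from its start site. Mir196a-2, which encodes a microRNA known to target Hoxb8 in mouse, lies between Hoxc10 and Hoxc9. Neither replicate had a peak within 2365 bp of its start.

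Hoxc11, Hoxc12 and Hoxc13 had few peaks. Hoxc11 is a hindlimb gene, and Hoxc12 and Hoxc13 are known from hair follicles, where Hoxc13 controls hair keratin genes. Hoxc13 had a promoter peak in both replicates, 158 and 118 bp before its start site, with scores of 52 and 36 (the 60.4th and 45.4th percentile). The peak at the Hoxc11 start site had a score of 30 in replicate 1, the 18.9th percentile, with no counterpart in replicate 2. The peak closest to the Hoxc12 start site lay 6579 bp away in replicate 1 and 15772 bp away in replicate 2. Hotair, a long noncoding RNA gene between Hoxc12 and Hoxc11 whose human counterpart is known for its reported action on HOXD genes, had its closest peaks 4245 and 16346 bp from its start site in replicates 1 and 2. In replicate 2 a stretch of 43.1 kb from Hoxc13 to the gap before Hoxc10 held no peak, and in replicate 1 the longest such stretch of the cluster was 21.2 kb, within the same part.

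The side of the cluster that holds Hoxc4 to Hoxc8 had more shared regions than the side of Hoxc9 to Hoxc13. From the start of Hoxc8 to the end of Hoxc4, 46.2 kb, there were 7 (1.51 per 10 kb), and from the start of Hoxc13 to the start of Hoxc8, 69.5 kb, there were 3 (0.432 per 10 kb). Replicate 1 had 9 peaks on each side, 1.95 per 10 kb on the Hoxc4 to Hoxc8 side and 1.29 on the other. Replicate 2 had 7 peaks on the Hoxc4 to Hoxc8 side (1.51 per 10 kb) and 4 on the other (0.576). Peaks were placed by their centre, which puts the replicate 1 peak at the Hoxc8 start site (score 55) on the Hoxc9 to Hoxc13 side. The Hoxc13 promoter peaks (52 and 36) lie before the start of Hoxc13, so they were counted on neither side. Of the 9 peaks of replicate 1 on each side, 7 had a partner in replicate 2 on the Hoxc4 to Hoxc8 side and 3 on the Hoxc9 to Hoxc13 side. The bodies of the 9 genes held 0.919 shared regions per 10 kb and the 8 gaps between them 0.792. Counted to the gaps are the Hoxc10 promoter region and the region over the start of the shorter Hoxc5 transcript. No peak lay in the gaps from Hoxc13 to Hoxc12, Hoxc10 to Hoxc9 and Hoxc5 to Hoxc4.

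The flanks differed from each other. Before Hoxc13 there was 1 shared region in 50 kb, the Hoxc13 promoter peak itself, and upstream of it no peak of either replicate for 74.6 kb. Of the gaps between successive peaks of either replicate on the main chromosomes, 1.04% were at least as long, and these gaps made up 19.1% of the genome. Beyond Hoxc4 the next 50 kb held 12 peaks of replicate 1, 8 of replicate 2 and 5 shared regions. At least 5 shared regions were found in 20.1% of all 50-kb bins of the main chromosomes, and no peak of either replicate in 17.3%.

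Beyond Hoxc4 a group of 6 regions lay within 2.97 kb, 21.9 kb after the end of Hoxc4 (chr15:103058776-103061745), and was picked out after its values were seen. It held 6 of the 12 flank peaks of replicate 1, with scores of 45 to 79, and 7 of the 8 of replicate 2, with scores of 32 to 43. Of the 5 shared regions of this flank it held 4. It begins within 5730585A16Rik, a gene of unclear type on the minus strand, whose promoter window held peaks of both replicates (49 and 42). The fourth sequence above had the highest score of the group in replicate 1 (79), and in replicate 2 it shared the highest (43) with the region at 139.3 kb from the start of Hoxc13. At the edge of the window a further region scored 98 and 60, the 90.3rd and 75.7th percentile, the second highest of the window in both replicates. Of the 8 other annotated genes with a start site in the window, 5730585A16Rik and Mir615 had promoter peaks of both replicates. The 4 small noncoding RNA genes Gm27337, Gm27443, Gm28011 and Gm27535, Hotair and Mir196a-2 had none in either.

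At the 16 overlapping pairs of peaks the replicates gave a similar order, with a Spearman's rho of 0.80 (n = 16 pairs of neighbouring regions from the same 2 libraries, a description). The score was higher in replicate 1 at all 16, by 8 to 38 with a median of 21.5. Over all main chromosomes it was higher at 96.1% of pairs with a median difference of 18. The largest score differences were at the edge of the flank beyond Hoxc4 (98 and 60), the Hoxc10 promoter (78 and 41) and the fourth printed region (79 and 43). The lists have median scores of 45 and 38, and whether they share a scale is unknown. The differences therefore describe the listed numbers and not a difference in openness. Peaks of a pair started a median of 20 bp apart and at most 100 bp.

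Against the other Hox clusters, the DNA between the outer Hoxc genes had the fewest peaks per length in each replicate. It held 1.56 peaks of replicate 1 per 10 kb, against 4.37 in Hoxa, 3.16 in Hoxb and 4.44 in Hoxd. In replicate 2 it held 0.950 per 10 kb, against 2.85 in Hoxa, 1.44 in Hoxb and 2.38 in Hoxd. The main chromosomes as a whole had 0.993 and 0.630, so the Hoxc cluster was above them by both lists. Shared regions lay closer together in number: 0.864 per 10 kb in Hoxc, against 1.71 in Hoxa, 1.09 in Hoxb, 0.929 in Hoxd and 0.502 over the main chromosomes. Hoxd fell below Hoxc under a reciprocal overlap of 50% (0.778 in Hoxc, 0.620 in Hoxd) and with hotspots (0.864 in Hoxc, 0.826 in Hoxd). Peaks of replicate 2 between the outer genes overlapped one of replicate 1 at 10 of 11 in Hoxc (90.9%, exact binomial 95% interval 58.7 to 99.8), against 18 of 30 in Hoxa (60%, 40.6 to 77.3), 19 of 25 in Hoxb (76%, 54.9 to 90.6) and 9 of 23 in Hoxd (39.1%, 19.7 to 61.5). The share over all main chromosomes, 82.5%, lies within the Hoxc interval and above those of Hoxa and Hoxd. Neighbouring peaks are not independent, which these intervals do not allow for, and the differences were not tested.

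**Figure D2:**
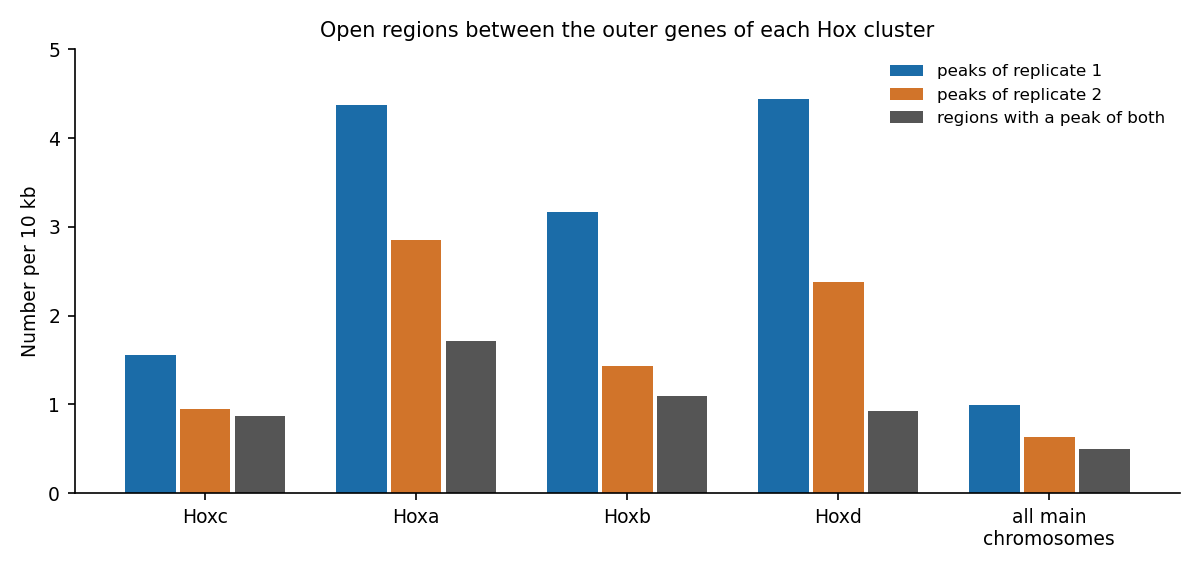
Peaks of replicate 1, peaks of replicate 2 and regions with a peak of both, as numbers per 10 kb (vertical axis), between the outer genes of each cluster and over the main chromosomes. Hoxc has the shortest bars of the 4 clusters, at 1.56, 0.950 and 0.864 per 10 kb, and all 3 stand above those of the main chromosomes (0.993, 0.630 and 0.502).

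Set beside their paralogues in replicates 1 and 2, Hoxc4 and Hoxc5 scored lower than the Hoxa and Hoxb genes of their groups, and Hoxc4 scored higher than Hoxd4. In group 4, Hoxc4 scored 83 and 54, against 117 and 85 at Hoxa4, 102 and 63 at Hoxb4 and 77 and 49 at Hoxd4. In group 5, Hoxc5 scored 59 and 50, against 97 and 71 at Hoxa5 and 110 and 90 at Hoxb5. In group 6, Hoxc6 had no promoter peak, against 75 and 47 at Hoxa6 and 67 in replicate 1 only at Hoxb6. In group 8, none of Hoxc8, Hoxb8 and Hoxd8 had one in replicate 2, and their scores in replicate 1 were 55, 48 and 51.

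Of groups 9 to 13, 2 of 5 Hoxc genes had promoter peaks of both replicates, and of the other clusters 0 of 4 Hoxa, 0 of 2 Hoxb and 0 of 5 Hoxd genes did, against 66.3% of all protein-coding genes. In group 10 the scores in replicate 1 were close, 78 at Hoxc10, 84 at Hoxa10 and 87 at Hoxd10, and replicate 2 had a peak at Hoxc10 only (41). In group 13, Hoxc13 had 52 and 36, Hoxb13 had 40 in replicate 1 only, and Hoxa13 and Hoxd13 had none. The difference between the clusters rests on replicate 2: in replicate 1 the counts were 3 of 5 Hoxc, 1 of 4 Hoxa, 1 of 2 Hoxb and 2 of 5 Hoxd genes, against 70.8% of all protein-coding genes. It was not tested.

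**Figure D3:**
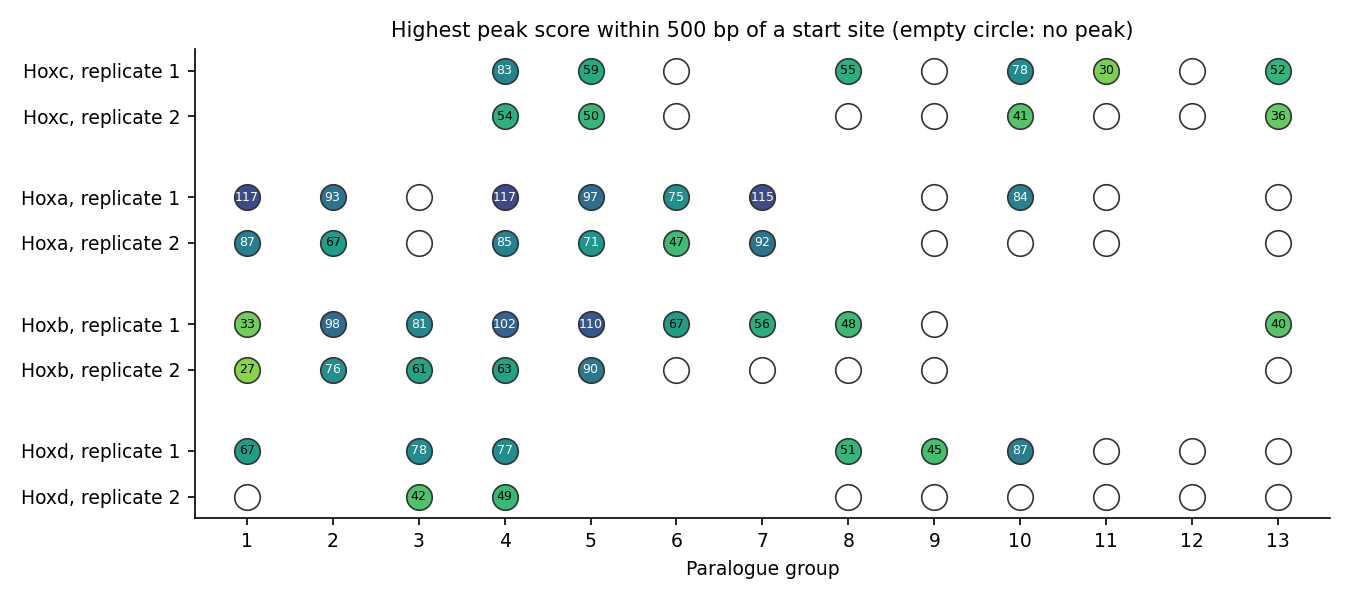
Highest score of a peak within 500 bp of any start site for each Hox gene, by paralogue group (horizontal axis) and by cluster and replicate (vertical axis); empty circles are genes with no peak there. In groups 9 to 13 filled circles in replicate 2 stand at Hoxc10 (41) and Hoxc13 (36) and at no gene of the other clusters.

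CpG-rich promoters of the Hoxc cluster mostly had no peak of both replicates, unlike those of the genome. CpG observed over expected compares the number of CG pairs with that given by the C and G content, here the highest value over a gene's promoter windows, and promoters of at least 0.6 were called CpG-rich. Of the 5 CpG-rich members, Hoxc8, Hoxc9, Hoxc11, Hoxc12 and Hoxc13, 1 had peaks of both replicates, Hoxc13, against 96.2% of all 11524 CpG-rich protein-coding genes. Of the 4 members under 0.6, Hoxc4, Hoxc5, Hoxc6 and Hoxc10, 3 did, against 33.2% of all 10414 such genes. Hoxc12, with no promoter peak in either replicate, had the highest value of the members, 0.893. Hoxc4, with the highest promoter score, had the lowest, 0.413. Hoxc10 lay just under the threshold at 0.594 and Hoxc9 just over it at 0.651. Among CpG-rich genes of the other clusters, 6 of 11 in Hoxa, 1 of 5 in Hoxb and 2 of 8 in Hoxd had peaks of both. Of their genes under 0.6, 4 of 5 in Hoxb and 0 of 1 in Hoxd did, and Hoxa had no such gene. The reversed order of the shares was thus found in Hoxb as well as in Hoxc.

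**Figure D4:**
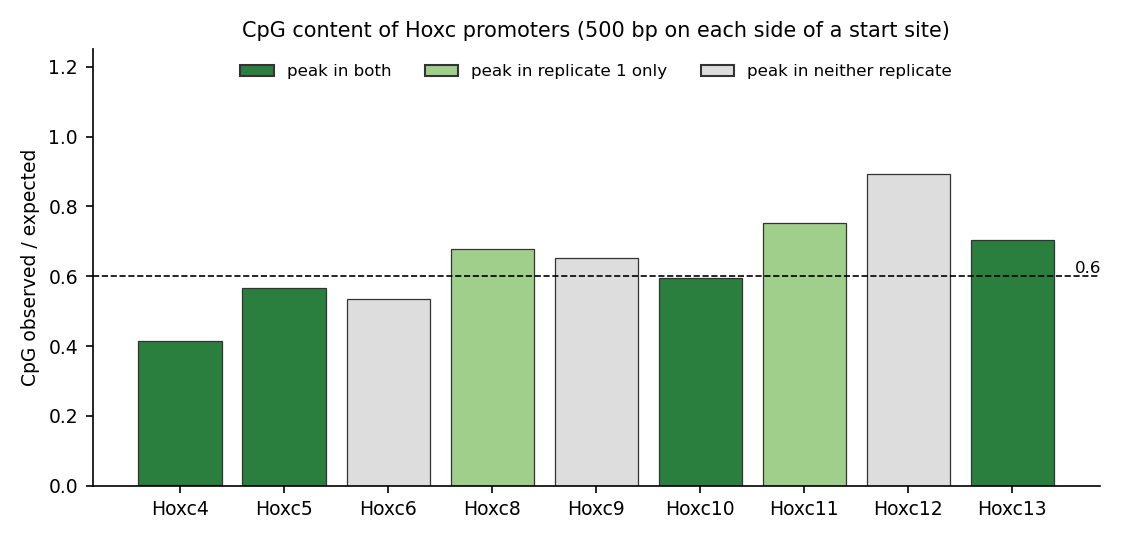
CpG observed over expected of each Hoxc promoter (vertical axis, the highest over the gene's start sites), with bars coloured by the replicates that had a promoter peak and a dashed line at 0.6. Of the 5 bars above the line, Hoxc13 (0.703) has a peak of both, Hoxc8 and Hoxc11 of replicate 1 only, and Hoxc9 and Hoxc12 (0.893) of neither.

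Shared regions of the Hoxc window were rich in CpG compared with those elsewhere. In 200 bp around their centres the median CpG observed over expected was 0.716 at the 16 regions, with a range of 0.0753 to 1.12, against a median of 0.293 at all 136714 shared regions of the main chromosomes. Their median GC content was 55% (43.5 to 68), against 51%. The cluster's DNA as a whole, from Hoxc13 to Hoxc4, had 0.357, and was less repeat-masked (15.9%) than the main chromosomes (36.4%). At the shared regions themselves the median repeat-masked share was 12.5% in the Hoxc window, against 0% at all shared regions. The lowest CpG value was that of the weak region between Hoxc8 and Hoxc6. These comparisons with all shared regions were not matched for place. Of the 16 regions, 9 lay outside exons and member promoter windows, a share not counted over all shared regions.

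Motifs were searched as fixed words on both strands of the same 200 bp. The Hox-Pbx word TGATTNAT, which Hox proteins bind with the cofactor Pbx, was held by 2 of the 16 regions, against 2.84% of all shared regions. They were the Hoxc4 intron region and the fourth printed region beyond Hoxc4, and both hold it as TGATTTAT. The Cdx word TTTATNG was held by 4, against 6.44%. Cdx proteins are activators of central and posterior Hox genes in the embryo. These 4 were the Hoxc4 intron region, the Hoxc4 promoter region and 2 in the group beyond Hoxc4. The retinoic acid direct repeat, a pair of receptor half-sites spaced by 5 bases, was held by 1 region, the fourth printed one, and by 57 of the 136714 shared regions (0.0417%). Retinoic acid is the signal that sets Hox expression limits in the embryonic hindbrain.

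The GC box GGGCGG was held by 4 regions, against 14.7% of all, and in the second printed region 2 copies overlap each other. The E-box CANCTG was held by 3, against 50.5%. The Meis word TTGACAG (3.25% of all shared regions), the homeodomain core TAATTA (5.80%), the CTCF consensus (5.19%), the NFI palindrome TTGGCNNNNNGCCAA (0.196%), the Sox word ACAATGG (2.60%) and the YY1 word AAGATGGC (1.65%) were held by none of the 16. A match is a run of letters and not a bound site, and the absence of a match covers only these letters in these windows. Only full matches were counted: the first printed region holds AGGTGGC, which fits part of the CTCF consensus but not the whole. With 16 regions, 1 region is 6.25%, so these shares are coarse and were not tested.

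Promoter peaks of both replicates were also counted in lists of genes known to act on or with Hox genes. All 9 Hox cofactor genes of the Meis, Pbx and Pknox families had promoter peaks of both replicates, among them Pknox1 (144 and 141) and Pbx4 (138 and 127). All 18 genes of Polycomb, trithorax and chromosome architecture proteins did so too, led by the methyltransferase gene Ezh2 (148 and 139), Cbx8 (143 and 139) and Suz12 (147 and 134), which are Polycomb members. Of 12 upstream regulators 9 had them (75%), which is near the 66.3% of all protein-coding genes. They were led by Nr6a1 (132 and 114), Gdf11 (128 and 114) and the hindbrain segmentation gene Egr2 (129 and 101). Cdx1 and Cdx2 had none in either replicate. The background for all of these counts is the 66.3% of protein-coding genes given above.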

How the data were processed

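Peaks and hotspots were called by the authors for each replicate separately from its alignments on mm10, per the file lists deposited with the samples. Caller and settings were not given in the sources used here. The deposited peak tables give a score per peak, a whole number of at most 150, and the deposited hotspot tables a −log10 q-value with a cap of 100. Peaks on other sequences than the main chromosomes (393 and 212) were left out. A region was shared where merged peaks of both replicates overlapped by at least 1 bp, and a peak was placed by its centre. Genes and start sites came from GENCODE M21 and sequences from the RefSeq copy of the same build. In the map by gene, the longer Hoxc5 transcript was left out because it spans other members. Scripts used Python 3.11.15, NumPy 2.4.6 and SciPy 1.17.1, and were tested on simulated intervals.

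The members and lists were chosen with earlier results of these data known. All members, every other gene of the window and the paralogues are named; of each further list, the 3 with the highest mean percentile and those without a peak of both, except that some genes the rule names are not reported here. Alternatives were other promoter windows, start sites, flanks, overlaps, stronger peaks, hotspots, lists of equal length, and each replicate alone.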

Additional observations from a re-analysis of the deposited data

How the results depend on the processing

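Of 31 alternative values for 6 results, 26 stayed within 1.5 times the reported value or within its interval. Promoter peaks of both replicates were counted at 2 members when the gene's own 5′ end was its single start site, Hoxc10 and Hoxc13, and at 3 with RefSeq gene starts, an alternative chosen after seeing the data, in which Hoxc4 was lost. Leaving out 1 replicate gave 4 to 6 members. Flanks of 100 kb gave 27 shared regions and 33 peaks of replicate 2. Leaving out 1 replicate gave 17 to 31 regions in the window and a density between the outer genes of 0.950 to 1.56 per 10 kb, since no match is then asked for. Read depth is unknown, and the lists differ in length.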
